A study of Mus musculus with 3 samples.

Results

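The genes described here are C1qa, C1qb and C1qc, which encode the chains of complement component C1q. They are 3 of the 34289 features that each of the 3 deposited matrices lists, found by their symbols, and each symbol stands on 1 feature. The chains were chosen by their measured CPM and share of positive cells in these libraries, so all levels are given as a description and none was tested. The libraries held cells enriched for Langerhans cells (LCs), the antigen-presenting cells that live in the epidermis, from the ears of male Cd1 mice, and were read as counts of unique molecular identifiers (UMIs) with a droplet-based 3′ single-cell assay. In the untreated library the mice had received only the depilatory Nair. In the croton oil library the skin had been exposed to acetone, croton oil (a skin irritant) and olive oil, and in the microneedle library it had been punched repeatedly with a microneedle array. Both treated ears were taken 48 hours after the first treatment. The epidermis had been detached with trypsin and broken up mechanically, dead cells had been removed on magnetic beads, and LCs had been enriched magnetically, per the labels. How many animals each library pooled is not given in the sources used here.

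C1q is the recognition molecule of the classical complement pathway. An A, a B and a C chain fold together through their collagen-like stems and end in a globular head each, and several of these trimers are bundled into 1 molecule, so a cell needs all 3 transcripts to make it. The heads bind antibody bound to a surface, dying cells and other ligands, and the proteases C1r and C1s, carried on the stems, then cleave C4 and C2. Most C1q in the body comes from macrophages and related myeloid cells rather than from the liver, the source of most other complement proteins.

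There was 1 library for each condition. Nothing below has a replicate, no p-value is given, and an effect of treatment and a difference between libraries cannot be told apart. All intervals are 95% intervals that cover counting error only. LCs were cells with 2% or more of their UMIs from the MHC class II genes Cd74, H2-Aa, H2-Ab1 and H2-Eb1 and with 2 or more UMIs of Epcam, an adhesion molecule that LCs share with keratinocytes. Macrophages were cells with 10 or more UMIs of Pf4, Ccl7, Ccl2, Msr1 and Fcgr1 together and with Epcam plus Cd207 under 300 CPM, the summed UMIs of a gene for every 1000000 summed UMIs of all genes. The LC gate held 9424 untreated, 6408 croton oil and 5641 microneedle cells, with a median of 11672, 12809 and 17530 UMIs. The macrophage gate held 1, 9 and 281 cells, so macrophages are described in the microneedle library alone. All 9 LC markers were at 20 CPM or more in the LCs of every library, and Cd207, which encodes langerin, was at 569, 320 and 461 CPM. All 10 macrophage markers were at that level in the microneedle macrophages, where Cd207 was at 6.18 CPM. Both marker lists include the genes that define the gates, and the macrophage gate caps Cd207. The levels of those genes, and the low Cd207 of macrophages, are therefore set by the gates. Cd207 is not part of the LC gate. Between 13 and 32 cell barcodes occurred in each pair of libraries, and without the LCs that carried them the log2 changes of the chains and the shares of LCs with C1q moved by less than counting error.

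The 3 genes lie side by side on chromosome 4 in GRCm39, all on the minus strand and each with 3 exons in its main transcript. C1qb spans 136606009 to 136613511, C1qc 136616466 to 136620376 and C1qa 136623223 to 136626161, together 20153 bp. A long non-coding gene on the other strand, Gm69251, overlaps C1qb and C1qc in the annotation and is not in the deposited feature lists. Whether the counting used strand is not given in the sources used here. The nearest listed protein-coding neighbours encode ephrin receptors, and they did not share the levels of the cluster. Ephb2 was at 0.595 CPM in untreated LCs, 0.252 with croton oil and 0.457 with microneedles, and Epha8 had 2, 3 and 5 UMIs. Because the 3 chains differed together between libraries, the sequence just before 2 of them is shown, from RefSeq's promoter table (GRCm38.p6), in which 2 of the 3 chains matched. Both stretches occur once in GRCm39, C1qb at chr4:136613512-136613761 and C1qc at chr4:136620377-136620475, minus strand, and only bases outside the annotated genes are printed. Capitals mark matches to GAGGAA, the core letters of PU.1 sites, searched on both strands.
C1qb: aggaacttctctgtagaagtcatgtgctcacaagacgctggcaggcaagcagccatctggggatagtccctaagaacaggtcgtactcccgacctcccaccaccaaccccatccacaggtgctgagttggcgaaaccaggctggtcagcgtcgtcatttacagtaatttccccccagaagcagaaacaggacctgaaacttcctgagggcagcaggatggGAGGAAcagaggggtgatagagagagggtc
C1qc: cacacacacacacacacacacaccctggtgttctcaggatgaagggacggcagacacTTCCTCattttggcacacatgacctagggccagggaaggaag
The C1qb stretch held GAGGAA at 30 to 25 bases before the RefSeq start, letters found in 23.25% of all promoter windows of its length of 250 bases. The C1qc stretch held GAGGAA on the opposite strand, shown in capitals as read on the gene's own strand, letters found in 9.905% of windows of 99 bases. GAAA followed after any 2 bases by a second GAAA, the core letters of interferon response elements, occurred in neither stretch on either strand. Those letters are in 2.98% and 1.30% of windows of these lengths. A match is a description of letters and not a binding site.

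In LCs the level of every chain was lowest in the untreated, intermediate in the microneedle and highest in the croton oil library. C1qa, the A chain, was at 59.4 CPM (interval 58.1 to 60.8) in untreated LCs, from 7190 UMIs, at 483 CPM (479 to 488) in microneedle LCs and at 1455 CPM (1447 to 1463) in croton oil LCs. No 2 of these intervals overlap, and the croton oil level was 24.5-fold (23.9 to 25.1) and the microneedle level 8.13-fold (7.93 to 8.33) the untreated one. C1qc, the C chain, was at 0.595 CPM (0.466 to 0.750) in untreated LCs, 37.6 CPM (36.4 to 38.8) in microneedle LCs and 176 CPM (173 to 178) in croton oil LCs. The untreated level came from 72 UMIs in 63 of 9424 cells, and the fold over it was 295 (234 to 377) with croton oil and 63.2 (50.1 to 80.9) with microneedles. C1qb, the B chain, had 6 UMIs in all untreated LCs, or 0.0496 CPM (0.0182 to 0.108), against 8.45 CPM (7.90 to 9.03) in microneedle LCs and 68.2 CPM (66.5 to 70.0) in croton oil LCs. Its folds of 1375.5 (632 to 3750) and 170 (78.0 to 465) rest on those 6 UMIs and are wide for that reason. Untreated LCs therefore held A chain transcripts and almost none of the other chains, while treated LCs held all 3. Markers of other cells differed within the LC gate too. The 10 macrophage markers summed to 646 CPM in untreated LCs, 1381 with croton oil and 1001 with microneedles, with 3 of the 10 at 20 CPM or more in each and none at 0. The 5 neutrophil markers summed to 9.41 CPM, 211 and 207 CPM, with 0, 3 and 2 at 20 CPM or more. The 8 T cell markers summed to 3.03, 78.2 and 10.3 CPM, with 0, 2 and 0 at that level, and the 7 keratinocyte markers to 277, 257.5 and 51.3 CPM, with 4, 3 and 1. Mgl2, a lectin of dermal dendritic cells and macrophages, was at 53.4, 336 and 15.4 CPM, and LCs without a Cd207 UMI were 2.61%, 22.4% and 4.79% of the gate. Their part in the result was not tested.

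On the scale of log2((CPM + 5)/(CPM + 5)), which understates changes of low genes, the croton oil change over untreated was 5.01 for C1qc, 4.50 for C1qa and 3.86 for C1qb. These were ranks 2, 4 and 17 among the 6858 genes with 20 CPM or more in either library, of which 5.66% were 2-fold or more higher and 5.48% lower. In the microneedle comparison the change was 2.93 for C1qc and 2.92 for C1qa, ranks 17 and 18 of 6715 genes, of which 3.92% were 2-fold or more higher and 1.77% lower. C1qb was under 20 CPM in both of those libraries and did not enter that ranking; its change was 1.41. Set against each other, croton oil LCs were 3.01-fold (2.98 to 3.04) above microneedle LCs in C1qa, 4.67-fold (4.51 to 4.84) in C1qc and 8.08-fold (7.53 to 8.67) in C1qb. The 3 chains thus differed from one another in how far the treated libraries stood apart, with a log2 change of 1.58 for C1qa, 2.08 for C1qc and 2.45 for C1qb. Of all 6645 genes in that comparison, 1.69% were 2-fold or more higher in croton oil and 1.05% lower. The first 2 comparisons share the untreated library.

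**Figure D1:**
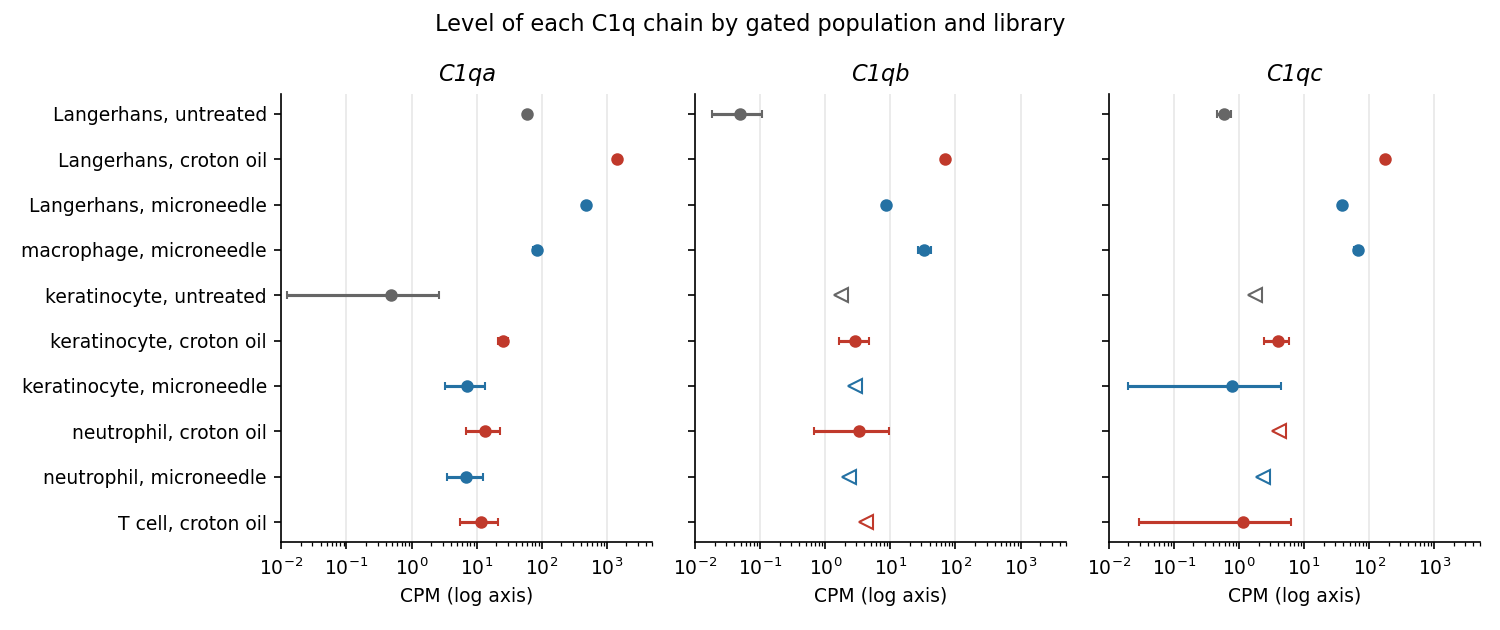
Level of C1qa, C1qb and C1qc in CPM (log axis) in each gated population of each library; points are summed counts, bars are 95% Poisson intervals, and open triangles mark the upper limit where no UMI was found. Among LCs each chain is highest with croton oil, C1qb and C1qc are under 1 CPM in untreated LCs, and microneedle macrophages lie below the LCs of their library for C1qa and above them for C1qb and C1qc.

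Keratinocytes, neutrophils and T cells, which are not known as main sources of C1q, gave the background. In the croton oil library C1qa was at 13.2 CPM (6.82 to 23.1) in 195 neutrophils, at 11.5 CPM (5.49 to 21.1) in 125 T cells and at 25.6 CPM (21.5 to 30.1) in 138 keratinocytes. One keratinocyte held 84 of the 181 C1q UMIs of that gate, and without it keratinocytes were at 17.2 CPM for C1qa, 0.365 for C1qb and 0.182 for C1qc. C1qb had 3 UMIs in the croton oil neutrophils and none in the T cells, and C1qc had none and 1. In the microneedle library C1qa was at 6.95 CPM (3.47 to 12.4) in 379 neutrophils and 7.03 CPM (3.21 to 13.3) in 44 keratinocytes, with no C1qb UMI in either and 1 of C1qc. Untreated keratinocytes had 1 C1qa UMI in 74 cells. The LC level of C1qa was 56.9 to 127 times that of the background cells of its own library in the croton oil library and 68.7 to 69.6 times in the microneedle library. For untreated LCs the ratio to keratinocytes was 124.9, with an interval of 22.4 to 4934 because it rests on 1 UMI.

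The share of LCs in which C1q was detected was compared after each cell had been thinned to 3000 UMIs, leaving out 102 untreated, 32 croton oil and 59 microneedle LCs that were shallower. At this depth a UMI of any chain was found in 1431 of 9322 untreated LCs (15.4%, 14.6 to 16.1), in 3625 of 5582 microneedle LCs (64.9%, 63.7 to 66.2) and in 5746 of 6376 croton oil LCs (90.1%, 89.4 to 90.8). Without thinning the shares were 41.8%, 93.9% and 98.0%. Background shares at 3000 UMIs were 4.17% (5 of 120) in croton oil keratinocytes, 8.11% (9 of 111) in neutrophils and 4.13% (5 of 121) in T cells. The microneedle background was 1.63% (4 of 246) in neutrophils, and 0 of 32 keratinocytes there had a UMI, which allows up to 9.38%. In the untreated library 0 of 67 keratinocytes had one, which allows up to 4.48%. Median depths before thinning were 3231 UMIs in croton oil and 3308 in microneedle neutrophils, 6190 in T cells, and 40625 in croton oil, 24297 in microneedle and 22732 in untreated keratinocytes. The LC share lay above its background in every library.

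By chain, C1qa was detected at 3000 UMIs in 15.2% of untreated, 63.8% of microneedle and 89.5% of croton oil LCs. C1qc was detected in 0.150% (14 cells), 9.19% and 32.4%, and C1qb in 0.0429% (4 cells), 2.36% and 13.5%. The untreated shares of C1qb and C1qc lay under the limit of 4.48% that the untreated keratinocytes allow for any chain, and cannot be told apart from background by that limit. At 6000 UMIs C1qc was found in 22 of 2374 untreated LCs with C1qa (0.927%, 0.582 to 1.40). Among those without C1qa it was found in 10 of 6648 (0.150%, 0.0722 to 0.2765). The level within cells differed too. The median croton oil LC held 4 C1q UMIs of 3000, with 1 at the 10th and 12 at the 90th percentile and 50 in the highest cell. The median microneedle LC held 1, with 4 at the 90th percentile and 23 in the highest cell. The median untreated LC held none, and no untreated LC held more than 5. With 6 or more C1q UMIs there were 40.3% of croton oil LCs, 5.05% of microneedle LCs and 0 of 9322 untreated LCs, which allows up to 0.0322%. The 10% of cells richest in C1q held 30.8% of the C1q UMIs of croton oil LCs and 38.9% of those of microneedle LCs, so the transcripts were spread over the population.

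**Figure D2:**
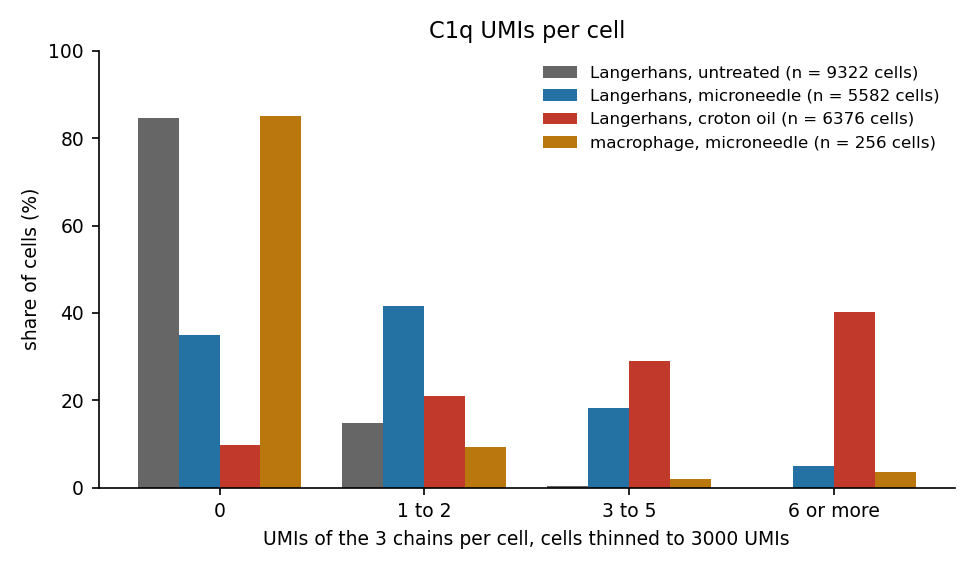
Share of cells (vertical axis, %) with 0, 1 to 2, 3 to 5 or 6 or more UMIs of the 3 chains together, each cell thinned to 3000 UMIs. Untreated LCs and microneedle macrophages are mostly at 0 (84.7% and 85.2%), microneedle LCs mostly at 0 to 2, and 40.3% of croton oil LCs hold 6 or more.

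The make-up of the C1q transcripts by chain also differed between libraries. A 3′ assay captures each transcript with its own efficiency, so the level of 1 chain cannot be set against that of another, and only the shares of the chains between populations are compared. C1qa made up 98.9% (98.7 to 99.2) of the 7268 C1q UMIs of untreated LCs, 91.3% (91.1 to 91.5) of the 55622 of microneedle LCs and 85.6% (85.5 to 85.8) of the 155235 of croton oil LCs. The share of C1qc was 0.991%, 7.11% and 10.3%, and that of C1qb 0.0826%, 1.60% and 4.02%, in the same order. None of the intervals of a chain overlapped between libraries. The make-up was thus furthest from untreated in the library with the highest level. Croton oil cells with MHC class II but fewer than 2 Epcam UMIs, 335 in number, had a make-up near that of the LCs, with 82.4% C1qa, 6.28% C1qb and 11.3% C1qc. The keratinocyte with 84 UMIs held 58.3% C1qa, 16.7% C1qb and 25% C1qc.

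**Figure D3:**
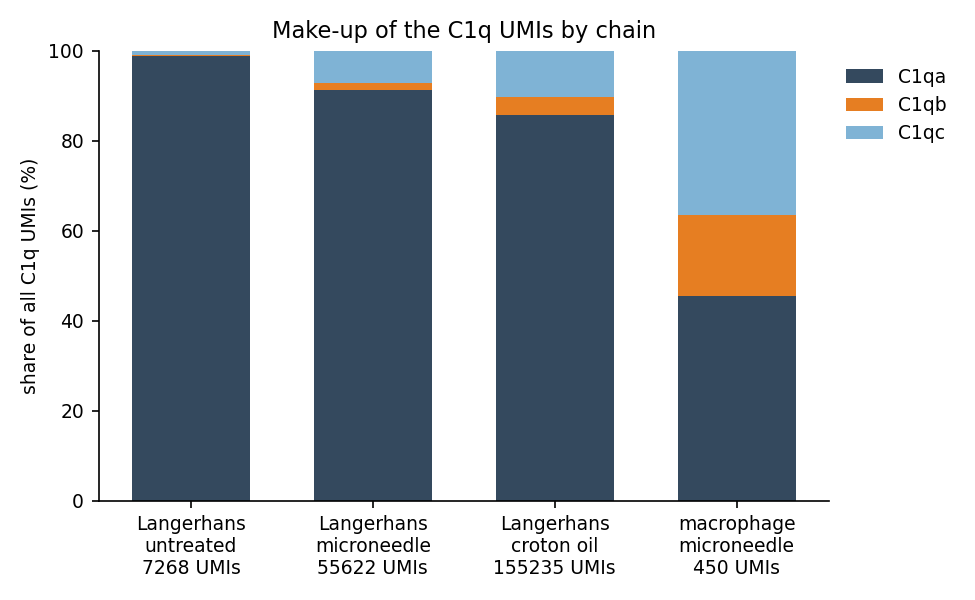
Share of all C1q UMIs (vertical axis, %) that came from C1qa, C1qb and C1qc, for LCs of the 3 libraries and macrophages of the microneedle library, with the number of C1q UMIs under each bar. C1qa makes up 98.9% in untreated LCs, 85.6% in croton oil LCs and 45.6% in macrophages.

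Macrophages, the textbook source of C1q, differed from the LCs of their own library in level and in make-up. In the 281 microneedle macrophages C1qa was at 84.4 CPM (73.2 to 96.8), or 0.175 (0.1515 to 0.200) of the LC level. C1qb was at 33.3 CPM (26.5 to 41.4), 3.95-fold (3.1 to 4.96) the LC level, and C1qc at 67.5 CPM (57.6 to 78.7), 1.80-fold (1.53 to 2.10). Of their 450 C1q UMIs 45.6% (40.9 to 50.3) were C1qa, 18.0% (14.6 to 21.9) C1qb and 36.4% (32.0 to 41.1) C1qc. Summed over the gate, the macrophages therefore held less A chain and more B and C chain transcript than the LCs beside them, but few macrophages carried these UMIs. At 3000 UMIs 38 of 256 had any chain (14.8%, 10.7 to 19.8), against 1.63% of neutrophils and 64.9% of LCs of that library. The 10 macrophages richest in C1q held 281 of the 450 UMIs. Without them C1qa was at 35.2 CPM, C1qb at 8.25 and C1qc at 29.97, against LC levels of 8.45 for C1qb and 37.6 for C1qc from which no cell was left out. The higher C1qb and C1qc of macrophages thus rested on those 10 cells, and without them the ratio to LCs was 0.977 for C1qb and 0.797 for C1qc. The make-up without them was 47.9% C1qa, 11.2% C1qb and 40.8% C1qc. Markers of other cells were present in the macrophage gate, with 5 of 5 neutrophil markers at 20 CPM or more (summed 3215 CPM) and 5 of 9 LC markers (summed 1416 CPM, against 49800 CPM in LCs); their part in the result was not tested. In the croton oil library the 9 gated macrophages had 44 C1qa, 3 C1qb and 5 C1qc UMIs, and the 1 untreated macrophage had 1, 1 and 3.

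Detection of each chain was compared between cells with and without another chain. At 6000 UMIs per cell, C1qa was found in 1268 of the 1270 croton oil LCs with C1qb (99.8%), against 93.4% of those without, and in 2912 of the 2925 with C1qc (99.6%), against 90.5% of those without. C1qa was thus found in nearly all croton oil LCs, which leaves little room for a difference. In microneedle LCs it was found in 191 of 198 with C1qb (96.5%) and 79.5% without, and in 810 of 854 with C1qc (94.9%) and 77.4% without. C1qb was found in 36.0% (34.3 to 37.8) of croton oil LCs with C1qc and in 6.45% (5.64 to 7.33) of those without. In microneedle LCs these shares were 14.1% (11.8 to 16.6) and 1.68% (1.33 to 2.09). Detection of 1 chain thus went with detection of the others in both treated libraries. All 3 chains were detected together in 1053 of 6290 croton oil LCs (16.7%), 119 of 5494 microneedle LCs (2.17%), 11 of 190 microneedle macrophages (5.79%) and 0 of 9022 untreated LCs. Over croton oil LCs at that depth the Pearson correlation of UMIs was 0.63 between C1qa and C1qc, 0.59 between C1qb and C1qc and 0.55 between C1qa and C1qb (n = 6290 cells of 1 library). Over microneedle LCs it was 0.50, 0.43 and 0.35 (n = 5494 cells of 1 library).

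Cells with more C1qa did not simply hold more of the other chains in proportion. Among croton oil LCs with 2 to 3 C1qa UMIs of 6000, there were 1.56 C1qb and 8.78 C1qc UMIs for every 100 of C1qa. In those with 8 to 15 there were 3.08 and 10.95 per 100, and in those with 16 or more 8.27 and 15.2. Microneedle LCs gave 0.704 and 5.42 at 2 to 3 C1qa UMIs, 2.93 and 9.86 at 8 to 15, and 7.53 and 14.7 at 16 or more. The share of C1qb and C1qc in the C1q transcripts was therefore higher in the cells richest in C1qa in both treated libraries. At 16 or more C1qa UMIs C1qb was detected in 56.8% (53.9 to 59.7) of 1140 croton oil LCs and 58.7% (43.2 to 73.0) of 46 microneedle LCs, and C1qc in 86.4% (84.3 to 88.3) and 89.1% (76.4 to 96.4), so at the top the libraries' intervals overlapped. At 4 to 7 they did not, with C1qb in 8.24% (6.91 to 9.72) of croton oil and 5.06% (3.91 to 6.42) of microneedle LCs and C1qc in 32.0% (29.6 to 34.4) of croton oil and 24.9% (22.5 to 27.4) of microneedle LCs. At 2 to 3 C1qb was detected in 3.66% (2.42 to 5.28) of croton oil and 1.2% (0.723 to 1.87) of microneedle LCs, and these intervals did not overlap either. Cells were matched on UMIs read and not on level. Mean C1qa UMIs of 6000 were 0.360 in untreated, 2.97 in microneedle and 9.56 in croton oil LCs. Equal UMIs therefore need not mean an equal level, and differences between libraries within a bin cannot be separated from that.

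Untreated LCs and macrophages departed from these values at the same number of C1qa UMIs. At 2 to 3 C1qa UMIs the 587 untreated LCs gave 0.775 C1qc UMIs per 100 of C1qa, from 10 UMIs, and C1qc was detected in 1.36% (0.590 to 2.67) of them, against 11.4% (9.84 to 13.0) of microneedle and 16.3% (13.7 to 19.1) of croton oil LCs. Untreated LCs thus held less C1qc than treated LCs also at the same number of C1qa UMIs, which need not mean the same level of C1qa. The 18 microneedle macrophages with 1 C1qa UMI held 16.7 C1qb and 22.2 C1qc UMIs per 100 of C1qa, against 1.07 and 5.55 in LCs of the same library. At 2 to 3 C1qa UMIs 11 macrophages held 25.9 and 51.9 per 100, against 0.704 and 5.42. At 4 to 7 all 8 macrophages had both other chains, with 66.7 and 86.7 per 100, against 1.13 and 6.86. The last bin holds macrophages rich in C1q, on few of which the summed levels of C1qb and C1qc rested.

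**Figure D4:**
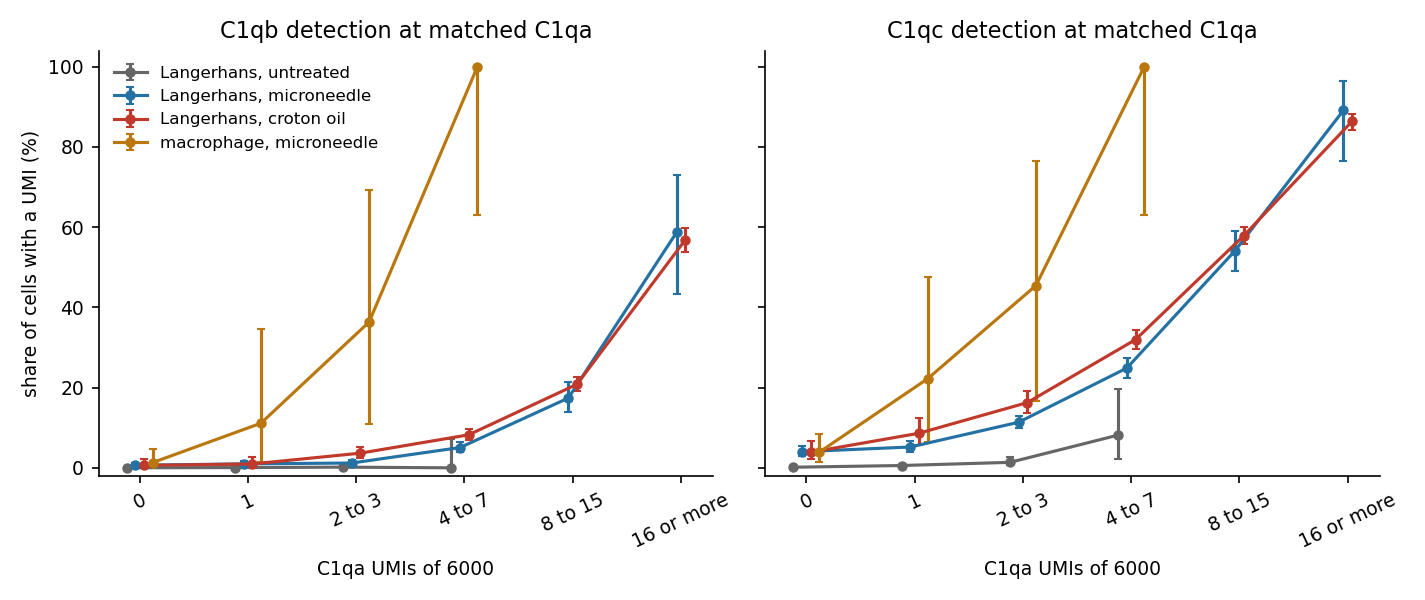
Share of cells (vertical axis, %) with a UMI of C1qb (left) or C1qc (right) by the number of C1qa UMIs in the cell, all cells thinned to 6000 UMIs; bars are exact 95% binomial intervals, and bins under 8 cells are not drawn. Croton oil and microneedle LCs climb to 56.8% and 58.7% for C1qb, with croton oil higher at 2 to 3 and 4 to 7 C1qa UMIs, untreated LCs stay below them, and microneedle macrophages lie above from 1 C1qa UMI on.

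C1q differed between LC states within a library. These states are cells with a set number of UMIs of a marker gene, they overlap, and they depend on depth. Migratory LCs, with 2 or more UMIs of Ccr7 (a receptor that guides them to the lymph node) plus Fscn1 (an actin-bundling protein), held less C1q. In croton oil C1qa was at 781 CPM in 266 such cells and 1498 in the others, a ratio of 0.521 (0.505 to 0.537), and the ratio was 0.542 for C1qb and 0.516 for C1qc. In microneedle LCs the C1qa ratio was 0.634 (0.576 to 0.696) over 54 cells, and the intervals for C1qb (0.393 to 1.52) and C1qc (0.605 to 1.11) included 1. Untreated LCs held 20 such cells, and their C1qa ratio of 1.27 had an interval of 0.819 to 1.87. LCs without a Cd207 UMI held more of all chains in both treated libraries. In croton oil C1qa was at 1857 CPM in 1436 such cells against 1364, a ratio of 1.36 (1.34 to 1.38), and in microneedle at 829 CPM in 270 cells against 471, a ratio of 1.76 (1.70 to 1.83). C1qc was 1.56-fold and 2.40-fold higher there, and C1qb 1.57-fold and 2.49-fold. These cells were shallower, with a median of 11369 against 13345 UMIs in croton oil and 13038 against 17706 in microneedle. In untreated LCs the direction was the other way, with C1qa at 44.1 against 59.7 CPM, a ratio of 0.739 (0.592 to 0.911).

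LCs with 2 or more UMIs of Il1b, an inflammatory cytokine, held more C1q in both treated libraries. The ratio was 1.16 (1.15 to 1.18) for C1qa, 1.46 for C1qc and 1.78 for C1qb in croton oil, and 1.25 (1.23 to 1.27), 1.67 and 2.44 in microneedle. The states differed between the libraries for Tnfrsf9, a costimulatory receptor of the TNF receptor family. Croton oil LCs with 2 or more Tnfrsf9 UMIs held less of each chain, with ratios of 0.825 (0.816 to 0.834) for C1qa, 0.674 for C1qc and 0.553 for C1qb, while such microneedle LCs held more, with 1.25 (1.23 to 1.28), 1.68 and 2.25. This opposite direction was not tested. Cells with Mgl2 held less C1q in the microneedle library, with ratios of 0.745 for C1qa, 0.533 for C1qc and 0.335 for C1qb. In croton oil the ratio for these cells was 1.04 (1.03 to 1.06) for C1qa, 0.836 for C1qc and 0.727 for C1qb. Cells with 3 or more UMIs of the cell cycle genes Mki67 and Top2a were at 0.772 of the other LCs for C1qa, 0.637 for C1qc and 0.565 for C1qb in croton oil, and at 0.929, 0.941 and 1.04 in microneedle. In the treated libraries C1qb and C1qc departed further from 1 than C1qa in every state where all 3 ratios lay on the same side, except in the migratory cells.

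Other genes were read in LCs divided by their C1q UMIs at 3000 per cell. The classes are ranges and not types, and 1338 croton oil and 1414 microneedle LCs lay at 2 or 3 UMIs, on either side of a limit, and 1038 and 274 at 5 or 6. In croton oil the median level of Tgfbi, a secreted matrix protein, was 0 CPM per cell in LCs with no C1q UMI and with 1 to 2, 71.6 with 3 to 5 and 184 with 6 or more. In microneedle LCs it was 0, 96.1, 235 and 519 CPM. Tgfbi was named for the highest correlation with C1q in both treated libraries, so its rise over the classes follows from how it was named. Csf1r, the receptor on which LCs depend, went with C1q in microneedle LCs, from 511 to 781 CPM, with a correlation of 0.24 over cells. In croton oil LCs it ran from 594.5 to 524 CPM with a correlation of -0.06, and with all cells thinned the correlations were 0.08 and -0.03. The median of Cd207 was lower with more C1q in the treated libraries, from 348 to 132 CPM over the croton oil classes and from 445 to 219 CPM over the microneedle classes, and ran from 499 to 661 CPM in untreated LCs. Epcam was lower in croton oil LCs rich in C1q, at 900 CPM against 1298 with none, and at 1429 against 1377 CPM in microneedle LCs. The MHC class II gene H2-Aa was at 12431 against 9726 CPM in croton oil and 10083 against 8764 CPM in microneedle LCs. The median number of UMIs of the 5 macrophage gate genes was 0 in every LC class. The share of LCs with any such UMI was 9.21%, 7.87%, 7.65% and 10.9% from the lowest to the highest croton oil class, and 13.2%, 13.1%, 14.3% and 14.5% for microneedle. Without these LCs C1qa was at 1443 CPM in croton oil and 479 in microneedle, C1qb at 64.8 and 7.94, and C1qc at 170 and 36.0.

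**Figure D5:**
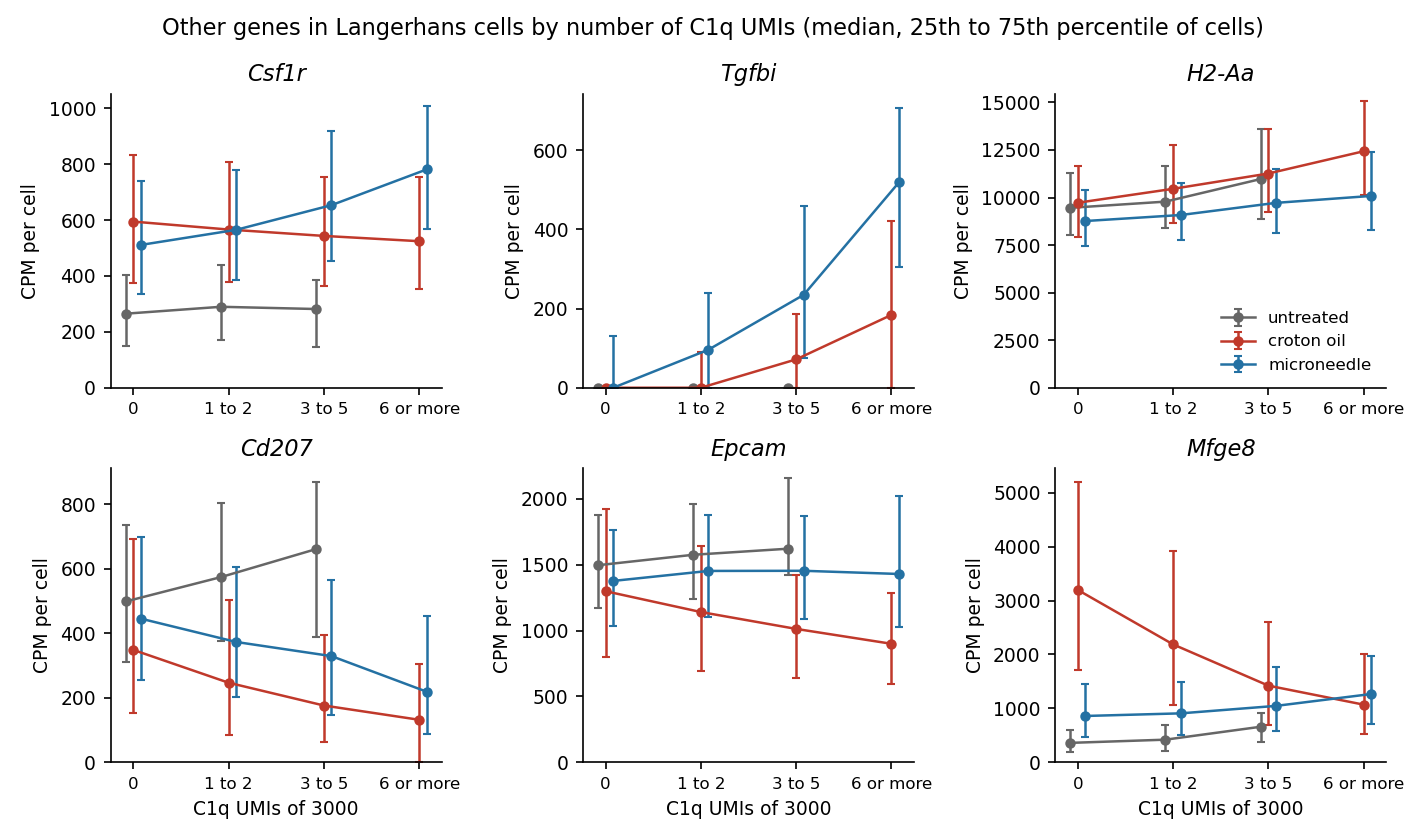
Level of 6 genes in LCs (CPM per cell, linear axes) by the number of C1q UMIs in the cell after thinning to 3000 UMIs; points are medians over cells and bars run from the 25th to the 75th percentile. Tgfbi and H2-Aa are higher and Cd207 lower in the treated LCs with more C1q, while Epcam and Mfge8 are lower in the croton oil LCs with more C1q and not in the microneedle ones. Tgfbi was the gene most like C1q in both treated libraries and Mfge8 the most opposed in croton oil. Their trends there follow from that ranking of the same cells.

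The genes most like C1q from cell to cell were ranked by the Pearson correlation of log values, scaled to the depth of each cell, with the 3 chains summed. The cells of 1 library share its chemistry and differ in depth, which shapes such correlations, so they are descriptions. In croton oil LCs (n = 6408 cells, 10232 genes) 7 of the 8 most alike were Tgfbi (0.51), Ifitm2 (0.44), Prnp (0.42), Itm2b (0.37), Aif1 (0.37), Ctss (0.36) and Pmvk (0.33). In microneedle LCs (n = 5641 cells, 10946 genes) they were Tgfbi (0.56), Cd63 (0.44), Ly6a (0.39), Fth1 (0.37), Ifitm2 (0.36), Aif1 (0.34), Lgals1 (0.32) and S100a10 (0.31). Tgfbi, Ifitm2, an antiviral membrane protein, and Aif1, an actin-binding protein of macrophages, were in both lists. Of these lists 5 and 6 genes stayed among the 8 when cells were thinned to 3000 UMIs. In untreated LCs the highest correlation of any gene was 0.17. The correlation with Tgfbi there was 0.05, where its level was 5.34 CPM against 154 CPM with croton oil and 178 CPM with microneedles. The most opposed gene of croton oil LCs was Mfge8 (-0.39), a bridge to dying cells that LCs make, and in microneedle LCs its correlation with C1q was 0.12. The antigen-uptake receptor Ly75 (-0.27), Spp1 (-0.36), which encodes osteopontin, and Capg (-0.33), an actin-capping protein, followed in croton oil.

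Of 52 other complement genes in 6 lists, 9 (17.3%) reached 20 CPM in the LCs of any library, against 6968 of all 34289 features (20.3%). The 9 were an alternative pathway gene, 2 inhibitors and 6 receptors and binding partners. None of the 4 proteases C1ra, C1rb, C1s1 and C1s2, which C1q activates, passed 0.0438 CPM, and none of the 7 lectin pathway genes passed 0.600 CPM (Masp2). Of 11 later components the highest was C2 at 1.68 CPM in untreated LCs, and C3 was at 0.273 CPM in untreated LCs, 0.843 with croton oil and 1.47 with microneedles. Microneedle macrophages and neutrophils did hold C3, at 101 CPM and 123 CPM. C1q was thus read in cells in which transcripts of its own proteases were near 0. Properdin (Cfp), which stabilises the alternative pathway convertase, was at 57.6 CPM in untreated LCs, 229 with croton oil and 165 with microneedles, folds of 3.97 (3.87 to 4.08) and 2.87 (2.80 to 2.96). Its correlation with C1q over cells was -0.12 in croton oil and 0.07 in microneedle LCs.

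Of 12 inhibitors Cr1l, a membrane regulator, was at 52.4, 53.6 and 50.2 CPM, and Cd46, another, at 18.8, 10.6 and 26.1 CPM. Among 15 receptors and binding partners 6 (40%) were at 20 CPM or more, against 20.3% of all features. Lrp1, a scavenger receptor to which C1q can bind, was at 18.0 CPM in untreated LCs, 66.7 with croton oil and 66.0 with microneedles, folds of 3.70 (3.53 to 3.89) and 3.67 (3.50 to 3.85). Calr, the chaperone calreticulin, which serves at the cell surface as a partner of Lrp1 in C1q binding, was at 144, 241 and 215 CPM. C1qbp, named for its binding to the C1q heads but mostly mitochondrial, was at 46.7, 62.3 and 46.1 CPM. The integrin chains Itgam, Itgax and Itgb2, which form complement receptors, were at 31.5 to 102.5 CPM. In each treated comparison 1 of these 6 (Lrp1) was 2-fold or more higher and none lower, beside 5.66% of all genes higher with croton oil and 3.92% with microneedles. Lrp1 was under 20 CPM in untreated LCs and entered only through the treated libraries, so its higher level there is favoured by that limit. The median log2 change of the 6 was 0.17 with croton oil and 0.40 with microneedles, against -0.03 and 0.02 for all genes. The receptors C3ar1, C5ar1 and Cd93 were at 494, 356 and 172 CPM in microneedle macrophages and at 17.3 CPM or less in LCs of any library.

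Of 25 other genes with a C1q domain, Emilin2 and C1qtnf12 (8%) reached 20 CPM, against 20.3% of all features. Emilin2, an extracellular matrix protein, was at 9.04 CPM in untreated LCs, 128 with croton oil and 28.8 with microneedles, folds of 14.2 (13.4 to 15.1) and 3.19 (2.98 to 3.42). C1qtnf12 was at 21.4, 24.5 and 21.3 CPM. Emilin2 followed the chains between libraries but hardly between cells, where its correlation with C1q was -0.04 in croton oil and 0.05 in microneedle LCs. It was under 20 CPM in untreated LCs and was named only through its treated levels, so its higher level there is favoured by that limit.

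Among transcription factors with a known link to C1q or to macrophage identity, Irf8, Spi1 (which encodes PU.1) and Nr1h2 were between 0.910 and 1.24 of untreated in both treated libraries, and Rxra was at 0.554 and 0.799. Maf was at 11.9, 5.86 and 5.45 CPM in LCs and at 466 CPM in microneedle macrophages, and Nr1h3, which encodes a liver X receptor, was at 0.561 CPM or less in LCs and 45.3 CPM in macrophages.

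Of 20 genes that macrophages often express with C1q, 11 (55%) reached 20 CPM in LCs, against 20.3% of all features. They did not move as a block. With croton oil 5 were 2-fold or more higher, 2 lower and 4 in between, beside 5.66% of all genes higher and 5.48% lower. Their median log2 change was 0.94, against -0.03 for all genes. With microneedles, among 10 genes, 3 were higher, 1 lower and 6 in between, beside 3.92% of all genes higher and 1.77% lower. Their median was -0.06, against 0.02 for all genes. Mrc1, Aif1 and Ctsd were under 20 CPM in untreated LCs and entered these counts only through a treated library. Their higher treated levels, and part of the medians, are thus favoured by that limit. Mrc1 was under it in both libraries of the microneedle comparison and was left out there. Mrc1, the mannose receptor, was at 0.331 CPM in untreated LCs, 48.9 with croton oil and 2.09 with microneedles. Its correlation with C1q was 0.27 in croton oil and -0.0025 in microneedle LCs. Aif1 was at 11.6, 90.9 and 51.0 CPM and Cd14, a lipopolysaccharide co-receptor, at 20.5, 116 and 78.2 CPM. Fcgr3, an Fc receptor, was at 32.0, 72.0 and 27.0 CPM and Lgmn, a lysosomal protease, at 63.1, 147 and 67.8 CPM, and both were 2-fold or more higher with croton oil and within 2-fold with microneedles. Csf1r was at 301, 584 and 622 CPM. Cd68 was at 39.9, 60.1 and 33.3 CPM, Ctsd at 18.1, 29.8 and 20.1 CPM and Adgre1 at 248, 166 and 201 CPM. Apoe, which carries lipid out of macrophages, went the other way, at 401, 157 and 192 CPM, as did Selenop at 97.2, 32.8 and 52.4 CPM. The other 9 genes of the list stayed under 20 CPM in LCs, the highest being Lyz2 at 15.9 CPM in untreated LCs. In croton oil LCs these 9 ran from 0.109 CPM (Folr2) to 3.01 CPM (Ms4a7), and in microneedle macrophages from 3.29 CPM (Axl) to 1354 CPM (Lyz2). Of the 11 above that level, Csf1r was lower in microneedle macrophages, at 174 CPM, than in LCs of any library.

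Cells just outside the LC gate held C1q as well. With MHC class II at 2% or more, croton oil C1qa was at 1349.5 CPM in 189 cells with 1 Epcam UMI and 1606 CPM in 216 cells with 2. Microneedle C1qa was at 300 CPM in 39 cells with 1 and 340 CPM in 41 cells with 2. At 1.5 to 2% MHC class II croton oil C1qa was at 1101 CPM, and at 2 to 2.5% at 1098 CPM, while microneedle C1qa was at 244 CPM and 406 CPM. C1qa was thus lower just outside the Epcam limit in croton oil and just outside the MHC class II limit in the microneedle library. The other comparisons, croton oil at the MHC class II limit and the microneedle library at the Epcam limit (41 and 48 UMIs), were within counting error. At the limit of the macrophage gate in the microneedle library, the 26 cells with 7 to 9 UMIs of the gate genes and the 13 with 10 to 12 had no C1qa UMI and 1 UMI each of C1qb and C1qc. Outside all gates lay 948 croton oil cells with C1qa at 377 CPM and 429 microneedle cells at 62.8 CPM.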

How the data were processed

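Single-cell 3′ libraries from ear epidermis were analysed, 1 for each of 3 conditions. The deposited values were whole UMI counts per gene and cell; their headers name Cell Ranger 8.0.0, and the submitters' processing notes name GRCm39. The libraries held 9876, 8241 and 6945 barcodes (untreated, croton oil, microneedle) with 127666928, 119360952 and 117178809 UMIs, and cells with 500 genes or more and 10% mitochondrial UMIs or less were kept (9827, 8158 and 6855). Scrublet (scanpy 1.11.5) marked 1, 0 and 0 cells at its own threshold and so had not worked; no doublets were removed, and removal of the highest scores at 0.8% per 1000 cells was an alternative. Of the LC and macrophage gates, 3 untreated cells met both and counted as LCs. Keratinocytes, neutrophils and T cells were cells outside both with under 0.5% MHC class II UMIs and 1% or more of 5 keratin genes, 1% or more of S100a8 plus S100a9, or 5 or more T cell receptor and CD3 UMIs; these limits were chosen after seeing the data.

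The chains, the gene lists and the rule for naming genes (list members at 20 CPM or more in LCs, the 8 genes most alike in each treated library among those seen in 5% of cells, and the flanking genes) were chosen with earlier results of these data known. Other named genes, such as opposed genes and list members under 20 CPM, were chosen after their values were seen. Counts were summed per gate. Intervals were exact Poisson, exact binomial (Clopper-Pearson) or, for ratios, exact conditional, and a count of 0 was given a limit of 3 counts. Scripts ran in Python 3.11.15 (numpy 2.4.6, scipy 1.17.1) and were tested on simulated data. The alternatives were TMM scaling (edgeR 4.0.16), a pseudocount of 1 CPM, and other filters, gates, depths and weights. Positions come from the GENCODE annotation of GRCm39. The values of 1 gene that the naming rule picks are not reported here.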

Additional observations from a re-analysis of the deposited data

Results flagged for a closer look

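The level of C1q in LCs of 1 state relative to the other LCs of the same library went in opposite directions between libraries for all 3 chains with Tnfrsf9, and for C1qa with Mgl2 and without Cd207. There is 1 library for each condition, so these differences were not tested. LCs with 2 or more Tnfrsf9 UMIs had 0.825 times the C1qa of the others in the croton oil library, 1.25 times in the microneedle library and 1.29 times in untreated LCs. For C1qb the ratio was 0.553 with croton oil and 2.25 with microneedles. For C1qc it was 0.674 with croton oil, 1.68 with microneedles and 4.01 in untreated LCs, the last with an interval of 1.42 to 9.21. Such cells were 65.7% of croton oil, 19.96% of microneedle and 1.68% of untreated LCs. LCs with a Mgl2 UMI had 1.04 times the C1qa of the others with croton oil, 1.07 times in untreated LCs and 0.745 times with microneedles. C1qb and C1qc did not share this, with ratios of 0.727 and 0.836 with croton oil and 0.335 and 0.533 with microneedles. The C1qa ratios of 1.04 and 1.07 lie near 1, and counting error leaves out the spread between cells. LCs without a Cd207 UMI had 1.36 times the C1qa of the others with croton oil, 1.76 times with microneedles and 0.739 times in untreated LCs. They had fewer UMIs than the other LCs in every library, with a median of 8412 against 11760 in untreated LCs, and the part of depth was not tested.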

How the results depend on the processing

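Of the recomputed values, 63 counted as unchanged, 36 as moved and 2 as changed in direction, with counting error as the limit. The 63 and the 36 each include an overlap of the lists of most alike genes, to which counting error does not apply. In these, 6 of 8 microneedle and 5 of 8 croton oil genes stayed. No paired analysis was possible because each condition has 1 library and the labels give no replicate numbers. For the log2 changes of C1qa, C1qb and C1qc with croton oil (4.50, 3.86 and 5.01), TMM scaling gave 4.60, 3.93 and 5.09, a pseudocount of 1 CPM 4.59, 6.04 and 6.79, a stricter LC gate 4.31, 3.73 and 4.88, and equal weight for every cell 4.64, 4.11 and 5.20. C1qa gave 4.54 without migratory cells, and C1qb 3.91 without doublet-scored cells and 3.79 without LCs holding macrophage gate genes. With microneedles (2.92, 1.41 and 2.93) a pseudocount of 1 CPM gave 3.002, 3.17 and 4.60. The stricter gate gave 2.87 for C1qa, and equal weight 2.97 for C1qa and 1.56 for C1qb. The share of LCs with C1q (15.4%, 90.1% and 64.9% in untreated, croton oil and microneedle) was 26.4%, 94.9% and 81.0% at 6000 UMIs, 41.8%, 98.0% and 93.9% without thinning, 2.30%, 79.1% and 38.2% when 2 UMIs were required, and 16.2%, 89.1% and 68.1% with the stricter gate. Without migratory cells the croton oil share was 91.1%. With stricter macrophage gates, without doublet-scored cells and without LCs holding macrophage gate genes, the ratios of macrophages to LCs stayed within 0.176 to 0.189 for C1qa, 3.88 to 4.31 for C1qb and 1.81 to 1.95 for C1qc. Without the 10 macrophages richest in C1q, a choice made after seeing the data that removes their C1q by construction, they were 0.0728 for C1qa, and below 1 at 0.977 for C1qb and 0.797 for C1qc. Leaving out shared barcodes moved none of the log2 changes and shares beyond counting error, and leaving out the Epcam condition none of the log2 changes; both were chosen after seeing the data, and neither was run on the other values. Depth limits C1qb in untreated LCs, read from 6 UMIs, and all macrophage values, read from 450.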
